A study of Rattus norvegicus with 9 samples.

Results

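The third week of dosing was compared with the second in rat dorsal root ganglia, by the 6 arrays of those weeks among the 9 arrays of the study. All 9 arrays were normalized and fitted together, so the week 1 arrays also enter the estimate of spread. The labels' sampling time chose the 3 arrays of week 2 and the 3 arrays of week 3, and each week held 1 array from each of 3 arms. The first arm was normal Sprague-Dawley rats given vehicle, without streptozotocin (STZ). Rats of the second arm had received STZ and vehicle. Those of the third had received STZ and FK1706 (FK in the labels), which binds immunophilins; the sources used here name no dose. Ganglia of lumbar levels L4 to L6 were collected 1 day after dosing week 2 or 3 had ended. Each array carried an equal mix of RNA from 5 rats, so every value is a mean over 5 animals, each arm has 1 pool per week, and the spread between single rats was not measured. The sources used here name neither the age of the rats nor the time from STZ to the first dose.

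The dorsal root ganglia lie beside the spinal cord and hold the cell bodies of sensory neurons, which carry touch, temperature and pain from the limbs. Satellite glia wrap each cell body, Schwann cells wrap the fibres, and the capsule adds fibroblasts, vessels and resident macrophages. STZ is toxic to pancreatic beta cells, which make insulin, and the resulting diabetes damages sensory nerves over time. Immunophilins are a family of folding enzymes that includes the FK506-binding proteins.

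Expression was measured with an Affymetrix rat array, as a MAS5 signal intensity for each of 15923 probe sets. Values below are normalized log2 signals, in which a difference of 1 is a doubling, after all arrays had been given the same distribution of values. This step mattered, since the 2% trimmed mean signal before it was 483, 422 and 407 in week 2 and 385, 365 and 360 in week 3 (normal vehicle, STZ vehicle and STZ FK1706, the order used throughout). The median gene therefore differed between the weeks by -0.22 on the deposited scale and by -0.01 after normalization. Before normalization the log2 signals of the arrays correlated with each other at 0.97 to 0.98 across the probe sets other than controls. The 3' to 5' signal ratios, a measure of RNA breakdown, lay between 1.04 and 1.12 for Gapdh and between 1.02 and 1.24 for Actb. The tissue's defining markers were present in every array. The 18 tested markers of neurons in general summed to 109450, 110246 and 110163 normalized signal units in week 2 and to 107334, 110184 and 111828 in week 3. Those of myelinating Schwann cells, 15 genes, summed to 53536, 46560 and 49447 in week 2 and to 55019, 50686 and 48910 in week 3.

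Of the 6989 genes bright enough to test, 1 passed the test between the weeks (0.0143%). It was Rap1gap, which encodes the protein that switches off the small GTPase Rap1. Its log2 signal was 9.27, 9.58 and 9.48 in week 2 and 10.10, 10.30 and 10.41 in week 3. Every week 3 array lay above every week 2 array, by 1.78-fold in the normal arm, 1.65-fold in the STZ vehicle arm and 1.91-fold in the STZ FK1706 arm. Rap1gap rose by 0.83 on the log2 scale (SE 0.082, 95% confidence interval 0.65 to 1.01, limma adjusted p = 0.0046, n = 3 pools per week). The week 1 signals of the gene, 9.63, 9.89 and 9.80, lay between the levels of the later weeks, and it is measured by 1 probe set. The call was lost, at an adjusted p of 0.071, 0.057 or 0.055, without the week 2 FK1706, the week 3 normal or the week 3 FK1706 array, while the difference stayed between 0.78 and 0.88 whichever array was left out. It was also lost with any arm left out (adjusted p 0.082 to 0.091), and at an adjusted p of 0.052 with only the arrays of weeks 2 and 3 or with a prior without a trend.

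No gene passed as lower (0%). An unadjusted limma p under 0.05 was reached by 702 genes (10% of those tested), 373 (5.34%) higher and 329 (4.71%) lower in week 3. With no differences between the weeks, 349 genes would be expected under that p, although the genes are not independent of each other. The exact sign-flip test over 3 arm pairs cannot go below a two-sided p of 0.25, so a single gene can pass only in the fit across all genes. The p-values measure the spread between pools of different arms and weeks. On the deposited scale, which keeps the fall in signal, 1605 genes passed, of which 18 were higher and 1587 lower in week 3, and Rap1gap was among those higher.

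Besides Rap1gap, 4 genes were at least 1.5-fold apart the same way in all 3 arms without passing, so that 5 of the genes tested met this mark (0.0715%), 3 higher (0.0429%) and 2 lower (0.0286%) in week 3. The first is Reep4, of a protein family that shapes the endoplasmic reticulum. Its signal was 8.14, 8.02 and 8.17 in week 2 and 9.06, 8.76 and 8.88 in week 3, with no overlap, and the difference was 0.79 (SE 0.11, limma adjusted p = 0.059). Smim24, a small membrane protein, read 7.49, 7.49 and 7.60 in week 2 and 8.11, 8.29 and 8.22 in week 3 (difference 0.68, limma adjusted p = 0.17). Here too all the week 3 arrays were the higher ones.

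The other pair lay lower in week 3. Bmpr2 encodes the type II receptor for bone morphogenetic proteins, secreted growth factors. It read 8.76, 8.70 and 8.68 in week 2 and 7.63, 8.08 and 7.57 in week 3, a difference of -0.95 (SE 0.13, limma adjusted p = 0.059). Its week 2 arrays were close together and all above the week 3 arrays. Cxxc5, a zinc finger protein that acts in Wnt signalling, averaged 9.41 ± 0.50 in week 2 and 8.66 ± 0.49 in week 3 by its brighter probe set (SD, n = 3 pools). Its differences in the arms were -0.67, -0.84 and -0.73 (mean -0.75, limma adjusted p = 0.22). The weeks overlapped for Cxxc5, because the STZ FK1706 arm was low in both, at 8.83 and 8.10. A further probe set of Cxxc5 differed by 0.04 between the weeks, so that the 2 probe sets of this gene disagree.

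**Figure D1:**
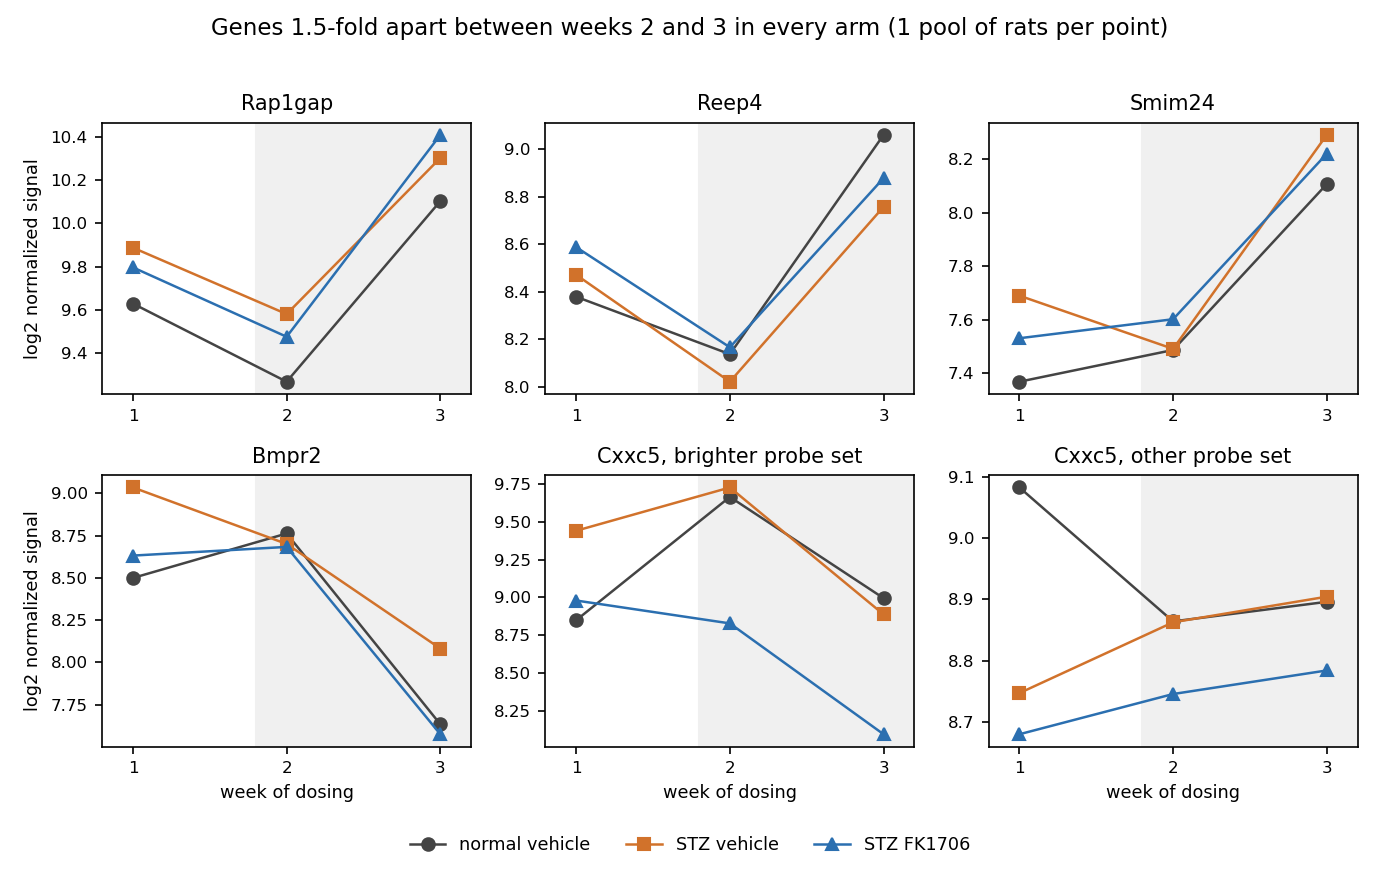
Normalized log2 signal (vertical axis) of the 5 genes at least 1.5-fold apart between weeks 2 and 3 in every arm, against the week of dosing; each point is 1 pool of 5 rats, each line 1 arm, and the shaded area marks the weeks compared. Rap1gap, Reep4 and Smim24 lie higher and Bmpr2 lower in each week 3 array, while the other probe set of Cxxc5 differs by 0.04.

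The 10 genes next in order of unadjusted p were also separated by week in every array. Only RT1-Ba among them is also named by the rule, as a member of the antigen presentation list. Among those higher in week 3 were U2af2, which helps to recognise the 3' splice site (difference 0.59, 10.54, 10.64 and 10.70 against 11.04, 11.35 and 11.26), and Ppp2r5b, a regulatory subunit of protein phosphatase 2A (0.67). Fgf9, a fibroblast growth factor, differed by 0.63, and Sult5a1, a sulfotransferase, by 0.52. The other higher genes were RT1-Ba, Mrpl37 and Hmgxb3, with differences of 0.72, 0.58 and 0.54. RT1-Ba encodes the alpha chain of a rat class II histocompatibility molecule and Mrpl37 a protein of the mitochondrial ribosome. Both have further probe sets without that difference, at -0.06 for RT1-Ba and at 0.20 and -0.26 for Mrpl37. Lower in week 3 were the chemokine Ccl6 (-0.90), the glycosyltransferase B3galnt1 (-0.72) and Mapkapk2, a kinase downstream of p38 (-0.61). The limma adjusted p of the 10 genes ranged from 0.11 to 0.17. Over all genes tested, 440 (6.3%) had every week 3 array above every week 2 array and 528 (7.55%) had every one below.

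Most genes differed little within an arm, and the arms had little in common. The difference between the weeks was under 1.2-fold for 71.6%, 73.6% and 74.8% of the genes in the normal, STZ vehicle and STZ FK1706 arms, and at least 2-fold for 34, 27 and 37 genes (0.486%, 0.386% and 0.529%). None of the genes tested was 2-fold apart the same way in all 3 arms. The sign was the same in all arms for 2242 genes (32.1%), of which 1030 (14.7%) were higher and 1212 (17.3%) lower in week 3. Across the 6989 genes, which are not independent of each other, the differences correlated at r = 0.09 between the normal and STZ vehicle arms, 0.13 between the normal and STZ FK1706 arms and 0.19 between the STZ arms. The arms share no array, but all arrays were normalized together.

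**Figure D2:**
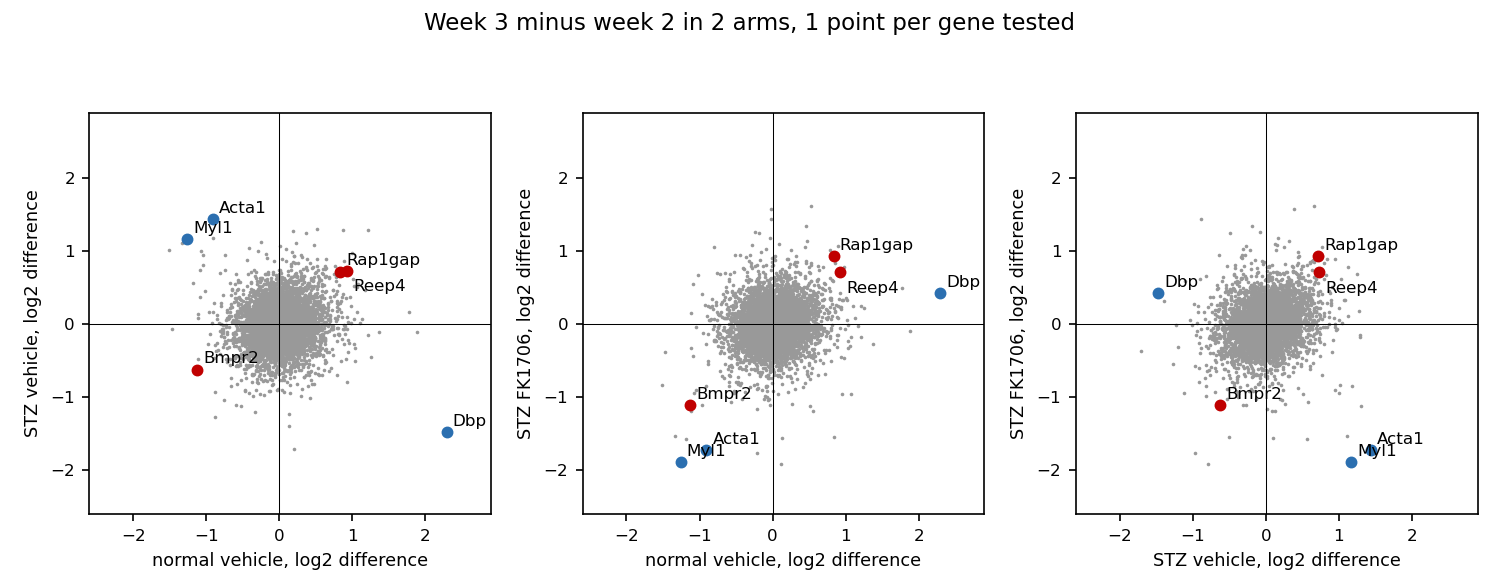
Log2 difference, week 3 minus week 2, of each of the 6989 genes tested in one arm (horizontal axis) against another arm (vertical axis). Red points are Rap1gap, Reep4 and Bmpr2, of the 5 genes at least 1.5-fold apart the same way in every arm. Blue points are Dbp, Acta1 and Myl1, which differ in direction between arms. The clouds are nearly round (r = 0.09, 0.13 and 0.19), with Dbp, Acta1 and Myl1 far out and on opposite sides of 0 in different arms.

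Gene groups were described by 39 lists of cell type markers and pathways, with 661 distinct genes tested. No list had a member that passed. The median difference of a list's genes lay between -0.18 and 0.12, and 33 of the 39 medians were less than 0.1 from 0, beside a median of -0.01 over all genes tested. The medians were above 0 in all 3 arms for 3 lists, below 0 in all 3 for 7 lists, and of mixed sign for 29. The counts of list members given below stand beside 14.7% of all genes tested higher and 17.3% lower in all 3 arms.

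**Figure D3:**
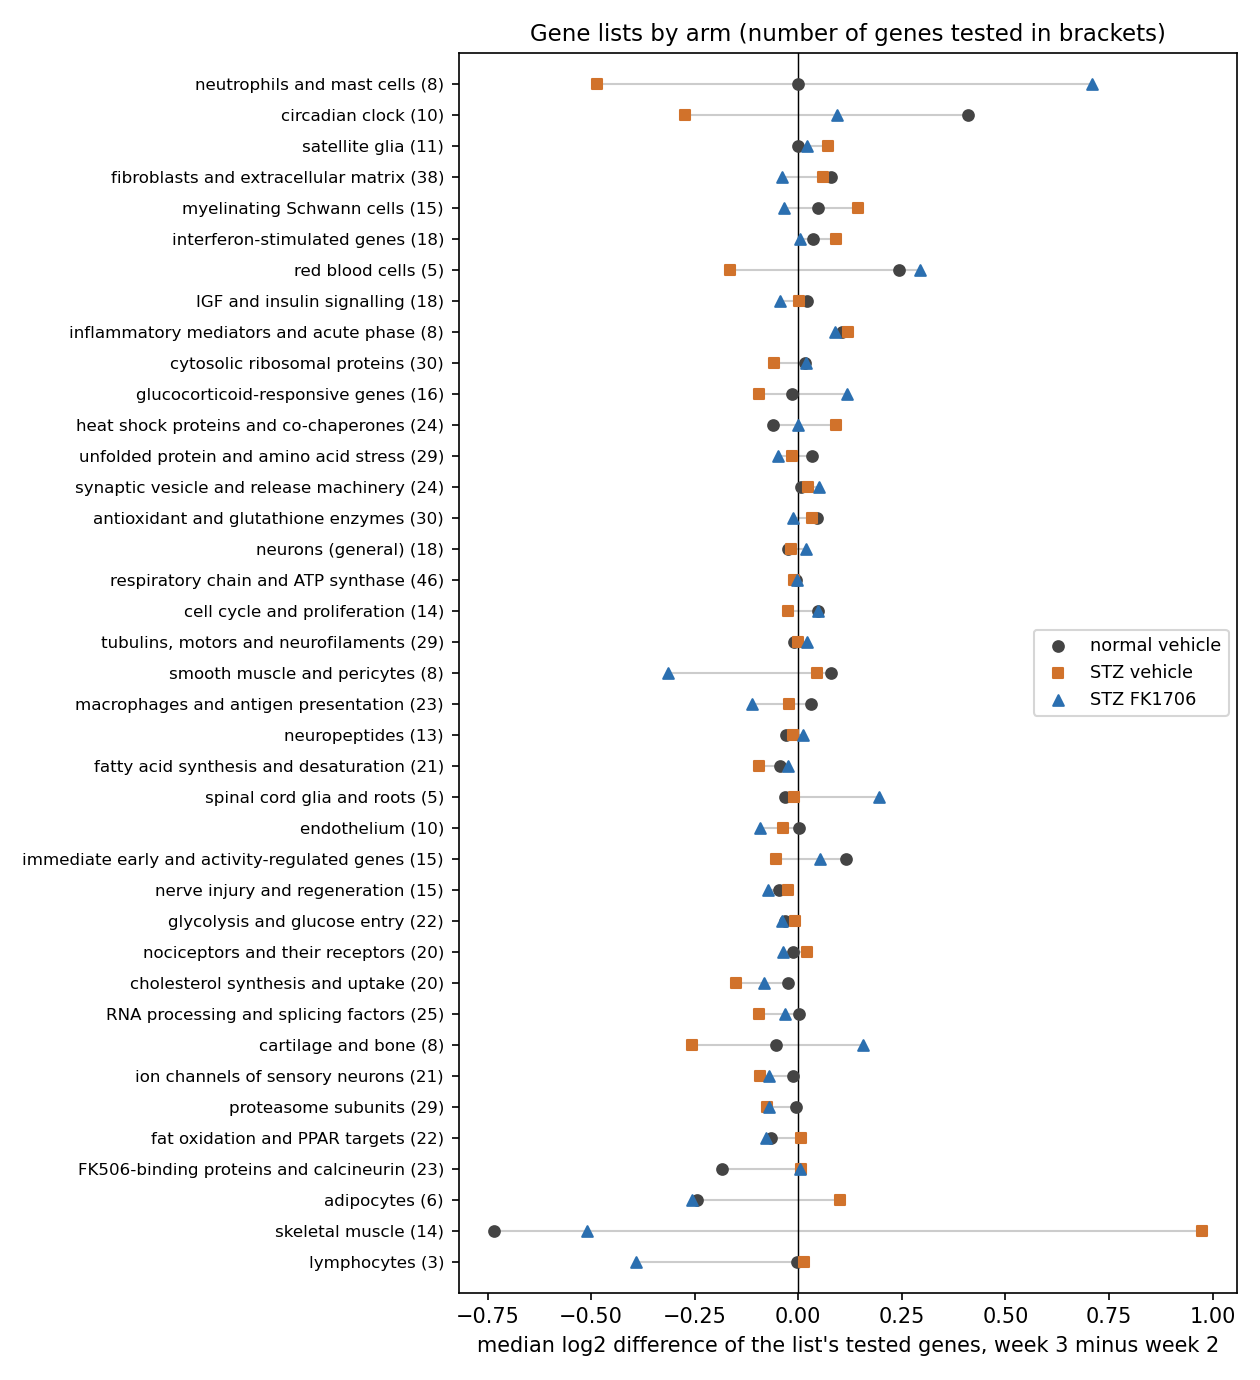
Median log2 difference, week 3 minus week 2, of the tested genes of each list (horizontal axis) in each arm, with the lists ordered by the median over arms and the number of tested genes in brackets; grey lines join the arms. Most medians lie near 0, while skeletal muscle, neutrophils and mast cells, and the circadian clock spread widely between arms.

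Of the 18 neuron markers tested, 1 was higher and 2 were lower in all 3 arms, and the median difference was -0.00. Isl1, a homeodomain factor that specifies sensory neurons, had the largest difference of the list, with 8.59, 8.36 and 8.26 in week 2 and 8.79, 9.30 and 9.16 in week 3 (0.68, limma adjusted p = 0.22). The normal arm differed by 0.20 and the STZ arms by 0.94 and 0.90. Tubb3, a neuronal tubulin, differed by -0.11, and by 0.00 in a dimmer probe set. In the arms the surface protein Thy1 differed by -0.17, 0.01 and -0.18 and the neurofilament subunit Nefm by 0.20, 0.00 and 0.06.

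Nociceptors, the neurons that sense damage, had 20 markers tested, of which 3 were higher and 4 lower in all arms (median -0.05). Trpv1, the capsaicin receptor, read 9.91, 9.82 and 9.90 in week 2 and 9.64, 9.64 and 9.60 in week 3, without overlap (-0.25, limma adjusted p = 0.41). Its further probe sets differed by -0.19 and, in a dim one, by 0.64, and the mean of its probe sets by 0.065. Values were 0.28 for somatostatin (Sst) and -0.17 for Scn10a, a sodium channel of nociceptors, and neither passed. The neurturin receptor Gfra2 differed by -0.33, 0.03 and -0.20 in the arms.

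Among 21 ion channel genes, 3 were higher and 7 lower in all arms, beside 14.7% and 17.3% of all genes tested. Their median difference was -0.07. The largest differences were 0.44 for Hcn2, a pacemaker channel (9.14, 9.46 and 9.66 against 9.84, 9.83 and 9.91), and -0.42 for the A-type potassium channel Kcnd3 (-0.78 in a dimmer probe set). For Cacna2d1, the calcium channel subunit that binds gabapentin, the difference was 0.24. The limma adjusted p of these 3 genes ranged from 0.29 to 0.46.

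Nerve injury and regeneration genes showed no shared direction, with 3 of 15 higher and 3 lower in all arms (median -0.03). Csf1, a growth factor for microglia and macrophages that injured sensory neurons make, had the largest value (0.82, SE 0.26, limma adjusted p = 0.36). It read 6.78, 8.29 and 7.99 in week 2 and 8.56, 8.47 and 8.49 in week 3, so that the low normal array of week 2 carried most of the difference (1.78, beside 0.18 and 0.50 in the STZ arms). Neuropeptide Y (Npy) differed by -0.29 and the stress gene Gadd45g by -0.30.

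Myelin and glial genes were mostly level. Of 15 myelinating Schwann cell genes, 4 were higher and 2 lower in all arms (median 0.06). Egr2, the transcription factor that drives myelination, read 8.81, 9.02 and 8.76 in week 2 and 9.42, 9.18 and 9.36 in week 3 (0.46, limma adjusted p = 0.23). A dimmer probe set of Egr2 differed by 0.10. Differences were 0.19 for Mal and 0.24 for Ugt8, which makes a myelin lipid, both of them below 0 on the deposited scale, and a dim probe set of Ugt8 differed by -0.17. Mag, a myelin adhesion protein, differed by 1.08, 0.56 and -0.18 in the arms. Satellite glia had 1 of 11 genes higher and 1 lower in all arms, and their largest same-sign value was 0.29 for Fgl2. Fabp7, a fatty acid binding protein of glia, differed by -0.91, 0.17 and -0.26.

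Matrix genes of fibroblasts had 7 of 38 members higher and 2 lower in all arms (median 0.08), beside 14.7% and 17.3% of all genes. Fibronectin (Fn1) differed by 0.24, the collagens Col3a1 and Col6a2 by 0.18 and 0.22, and the protease inhibitor Timp1 by 0.20, with overlap between the weeks for all 4. On the deposited scale the values of Fn1, Col3a1 and Timp1 were below 0. A dimmer probe set of Col6a2 was at -0.29. Macrophage and antigen presentation genes had 3 of 23 higher and 4 lower in all arms (median -0.01). Cathepsin S (Ctss) differed by -0.25 and lysozyme (Lyz2) by -0.15.

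Metabolic and protein quality genes were within narrow limits. Of 46 respiratory chain and ATP synthase genes, 6 were higher and 11 lower in all arms (median -0.01), and the 4 largest by test statistic, Uqcrh, Sdhb, Uqcrq and Cox6b1, differed by 0.13, -0.18, 0.15 and -0.12, with Uqcrh and Uqcrq below 0 on the deposited scale. Proteasome subunits had 13 of 29 members lower and 4 higher in all arms, beside 17.3% and 14.7% of all genes tested, but the median was small (-0.08) and no member had even an unadjusted p under 0.05. Psmd8 and Psmb1, subunits of the regulatory cap and the catalytic core, differed by -0.17 and -0.11. Among 24 heat shock genes, 6 were higher and 6 lower in all arms (median 0.01).

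Fat oxidation genes had 6 of 22 members lower and 1 higher in all arms (median -0.09), beside 17.3% and 14.7% of all genes. Acaa2 and Hadha, enzymes of mitochondrial beta-oxidation, differed by -0.33 and -0.24 (limma adjusted p = 0.41 and 0.43). Acads, which starts the oxidation of short chains, differed by -0.21. Cholesterol synthesis had 6 of 20 members lower and none higher in all arms (median -0.06), beside the same shares of all genes. Differences were -0.24 for Lss, -0.19 for Sc5d and -0.21 for Acat2. A dimmer probe set of Lss differed by -1.03 and one of Sc5d by 0.09.

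FK506-binding proteins and the calcineurin pathway, the protein families that immunophilin ligands act on, had 23 genes tested, of which 4 were higher and 6 lower in all arms (median -0.10). Rcan1, an inhibitor of calcineurin that calcineurin activity induces, read 9.88, 9.52 and 9.55 in week 2 and 9.39, 9.41 and 9.24 in week 3 (-0.30, limma adjusted p = 0.43). Fkbp1b, a close relative of the FK506 receptor, differed by -0.16, -0.20 and -0.18 and Fkbp2 by -0.41, -0.15 and -0.05. Nfatc4, a transcription factor that calcineurin activates, differed by 0.03, 0.89 and 0.26. By arm the median of these genes was -0.18 in the normal arm, 0.01 in the STZ vehicle arm and 0.00 in the arm given FK1706.

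Most of the clock genes tested differed between the weeks in different directions by arm, as did most of all genes tested. Dbp in the normal arm had the largest difference of any tested gene in any arm. The circadian clock is a feedback loop in which Bmal1 and Clock bind E-boxes (CACGTG) and drive Per, Cry and Nr1d genes and the output factor Dbp, whose transcripts swing over the day in many tissues. Windows of 300 bases around RefSeq transcription starts (GRCr8) are given for Dbp, which had the widest range between arms, and for Nr1d1 and Bhlhe41, 2 further list members measured here; capitals mark CACGTG, which reads the same on both strands. Dbp lies at chr1:105312006-105312305 on the plus strand, Nr1d1 at chr10:84229405-84229704 and Bhlhe41 at chr4:180569306-180569605, both on the minus strand.
Dbp: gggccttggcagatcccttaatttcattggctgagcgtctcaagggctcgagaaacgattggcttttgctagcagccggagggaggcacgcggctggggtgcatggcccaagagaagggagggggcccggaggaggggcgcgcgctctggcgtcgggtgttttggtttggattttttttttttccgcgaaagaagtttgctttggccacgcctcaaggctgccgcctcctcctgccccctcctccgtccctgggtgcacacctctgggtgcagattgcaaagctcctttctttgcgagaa
Nr1d1: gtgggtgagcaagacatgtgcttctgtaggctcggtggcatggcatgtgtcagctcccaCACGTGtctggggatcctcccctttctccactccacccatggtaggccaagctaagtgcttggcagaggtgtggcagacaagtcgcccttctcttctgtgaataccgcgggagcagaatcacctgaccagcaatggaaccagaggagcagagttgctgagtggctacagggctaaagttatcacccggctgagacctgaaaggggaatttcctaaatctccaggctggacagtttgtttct
Bhlhe41: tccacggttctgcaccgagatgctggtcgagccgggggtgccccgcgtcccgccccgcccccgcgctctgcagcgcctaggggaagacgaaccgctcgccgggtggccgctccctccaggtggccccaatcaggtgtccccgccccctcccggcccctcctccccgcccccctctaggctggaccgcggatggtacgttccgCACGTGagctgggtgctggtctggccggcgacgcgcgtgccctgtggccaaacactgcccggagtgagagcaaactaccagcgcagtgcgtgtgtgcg
CACGTG begins at base 60 of the Nr1d1 window and at base 203 of the Bhlhe41 window, counted from the 5' end, and is not in the Dbp window. Where a gene has several windows, one holding the motif was chosen for display, and the other of the 2 Nr1d1 windows lacks it. Per1, Per2, Nr1d2, Cry2, Clock and Bmal1 have the motif in no window. Of 20 clock list genes with a window, 5, among them Nr1d1 and Bhlhe41, hold the motif in at least 1 window. Of all 33469 windows, counted singly, 6.42% hold it. That share is per window and not per gene, so the 2 cannot be compared directly. The match is a description of these letters only.

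Dbp read 6.99, 7.63 and 6.89 in week 2 and 9.28, 6.16 and 7.32 in week 3. It was 4.89-fold higher in week 3 in the normal arm, 2.77-fold lower in the STZ vehicle arm and 1.35-fold higher in the STZ FK1706 arm. Nr1d2, a repressor of Bmal1, differed by 0.68, -0.64 and 0.09 in the same order of arms, and its relative Nr1d1 by 0.90, -0.14 and 0.09. The further probe sets of Nr1d2 differed by 1.36, -0.43 and 0.01 and by 0.35, -1.31 and -0.16. Per1, a negative arm of the loop, differed by 0.63, -0.35 and 0.13.

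Bmal1 had the opposite signs to Nr1d1 in the normal and STZ vehicle arms (-0.43, 0.27 and 0.04). Bhlhe41, a repressor in the loop, followed another order (0.78, 0.64 and -0.35). Per2 was too dim to test and read 6.36, 7.34 and 5.18 in week 2 and 8.43, 6.83 and 7.21 in week 3. Of the 10 list genes tested, none was higher in all arms and 2, Clock and Cry2, were lower, with mean differences of -0.20 and -0.15. Their further probe sets did not share this, at 0.11 and 0.44 for Clock and 0.04 for Cry2. Signs were mixed over the arms in 8 of the 10 genes, and in 4747 of all 6989 genes tested. Mixed signs are therefore not particular to this list. How common the order of signs of Dbp was over all genes was not tested. The list's medians were 0.41, -0.27 and 0.09. With 1 pool per arm and week, the difference between arms has no test. Dbp, Per1, Per2, Nr1d2 and Bmal1 fall outside the naming rule and were picked with their values in view.

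**Figure D4:**
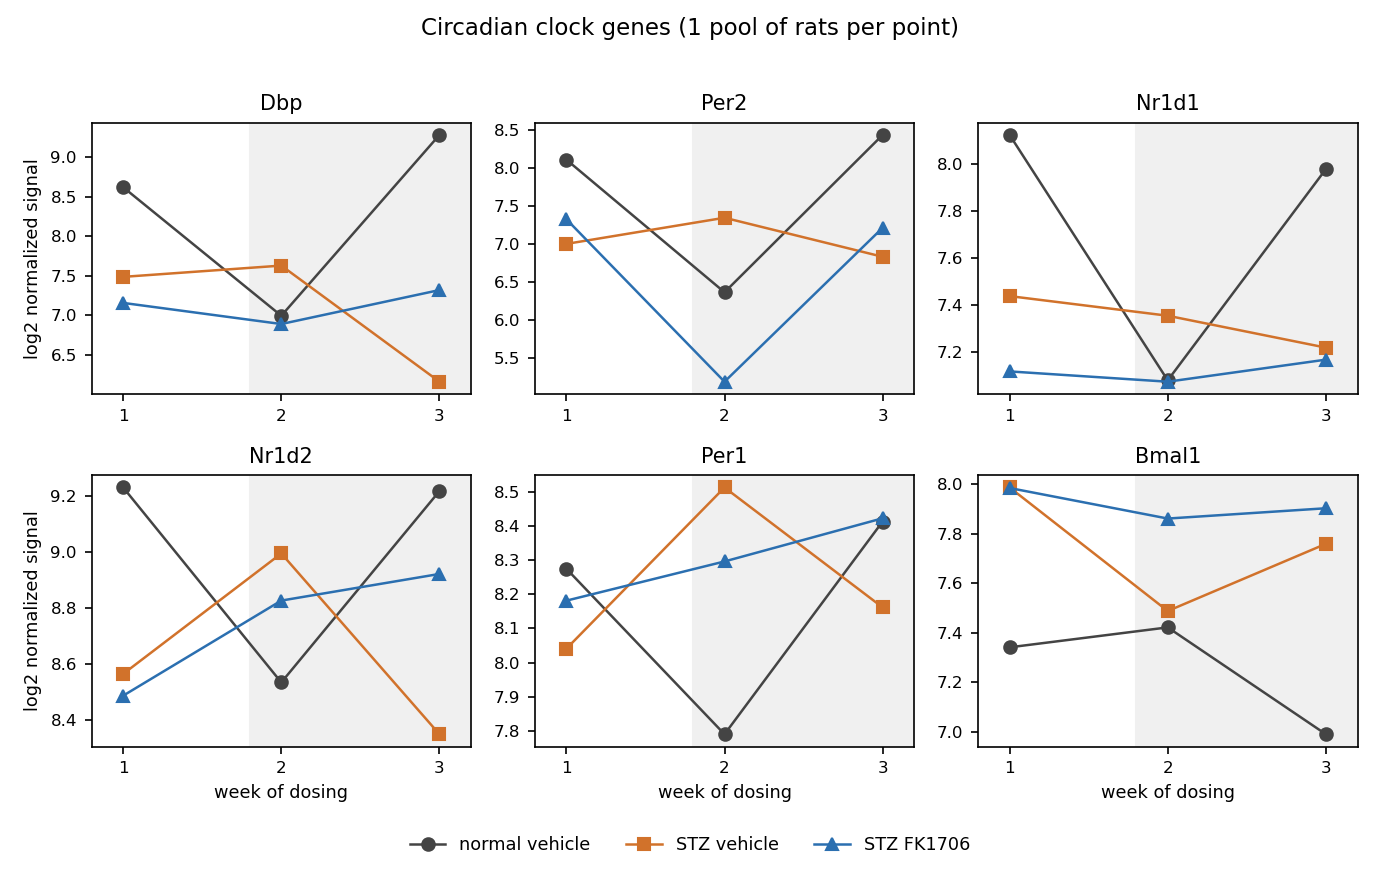
Normalized log2 signal (vertical axis) of 6 circadian clock genes against the week of dosing; each point is 1 pool of 5 rats, each line 1 arm, and the shaded area marks the weeks compared. Dbp goes from 6.99 to 9.28 between weeks 2 and 3 in the normal arm and from 7.63 to 6.16 in the STZ vehicle arm.

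Most tested markers of skeletal muscle also differed between weeks in opposite directions by arm, and the source of these transcripts was not tested. Skeletal muscle has 40 markers on the array, of which 14 were bright enough to test, and their medians were -0.73, 0.97 and -0.51. Their summed signal was 10582, 6033 and 7905 in week 2 and 7680, 8381 and 6476 in week 3. Acta1, the actin of skeletal muscle, read 10.77, 8.48 and 10.13 in week 2 and 9.86, 9.92 and 8.41 in week 3. Myl1, a myosin light chain, read 9.50, 7.24 and 8.44 and then 8.24, 8.41 and 6.56. Both were highest in the normal array of week 2 and higher in week 3 only in the STZ vehicle arm.

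Lower, higher and lower is the order of the muscle list's own medians, so a count of it among the markers is no test. Brightness was judged on the mean over all 9 arrays, so a high array can bring a marker in. The order was present in 9 of the 14 tested muscle markers and in 11.1% of all genes tested. Tnnc2, Atp2a1 and Ckm of that list had it, as did Car3 of the adipocyte list; Ckm and Car3 were picked with their values in view, as were Np4 and S100a9 below. Their differences in the 3 arms were -1.33, 1.11 and -1.53 for Tnnc2, -1.51, 1.02 and -0.83 for the calcium pump Atp2a1, -1.04, 0.95 and -0.89 for the creatine kinase Ckm and -1.19, 0.57 and -1.56 for Car3, a carbonic anhydrase of muscle and fat. A dimmer probe set of Car3 differed by -0.91, 0.04 and -0.68. The 5 muscle markers without that order were Myh1, Mybpc2, Tpm1, Tnni1 and Pvalb. Of these, Pvalb and Tpm1 were bright and nearly level, with means of 11.05 and 9.88 in week 2 and 11.11 and 9.92 in week 3. The list's summed signal includes them and so does not follow the other 9 genes alone. Myh1, a fast myosin heavy chain, differed by 0.26, 0.28 and 0.06, and its further probe sets differed by -0.11 to 0.40. The part of muscle RNA in other differences was not tested.

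Blood cell genes split the arms in another way. Of the neutrophil and mast cell markers, 22 are on the array and 8 were tested, with medians of -0.00, -0.49 and 0.71. Their summed signal was 3148, 2514 and 2326 in week 2 and 3223, 1524 and 3673 in week 3. The neutrophil calcium-binding protein S100a9 read 10.40, 10.14 and 10.07 in week 2 and 10.36, 9.25 and 10.69 in week 3. Np4, a defensin, differed by -0.02, -0.88 and 1.45, and the mast cell tryptase Tpsb2 by 0.13, -1.39 and 0.31.

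Of the red blood cell markers, 9 are on the array and 5 were tested, with medians of 0.24, -0.17 and 0.29. Haemoglobin beta (Hbb) read 12.86, 13.20 and 12.89 in week 2 and 13.10, 12.80 and 13.18 in week 3. Alas2, the first enzyme of haem synthesis in red cells, differed by 0.61, -0.62 and 0.39. The medians of both lists were below 0 in the STZ vehicle arm and above 0 in the STZ FK1706 arm. Counts of members with those signs are therefore a description and not a test, and the members share the same pools. Those signs were present in 6 of the 8 neutrophil and mast cell genes, 4 of the 5 red cell genes and 21.3% of all genes tested. The exceptions were Kit (-0.23, -0.44 and -0.06), the ficolin Fcnb (1.37, -0.10 and -0.27) and the transferrin receptor Tfrc (-0.28, -0.16 and -0.01), which leads the red cell list by test statistic. In bulk tissue, fewer cells of a type and less RNA per cell cannot be told apart.

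**Figure D5:**
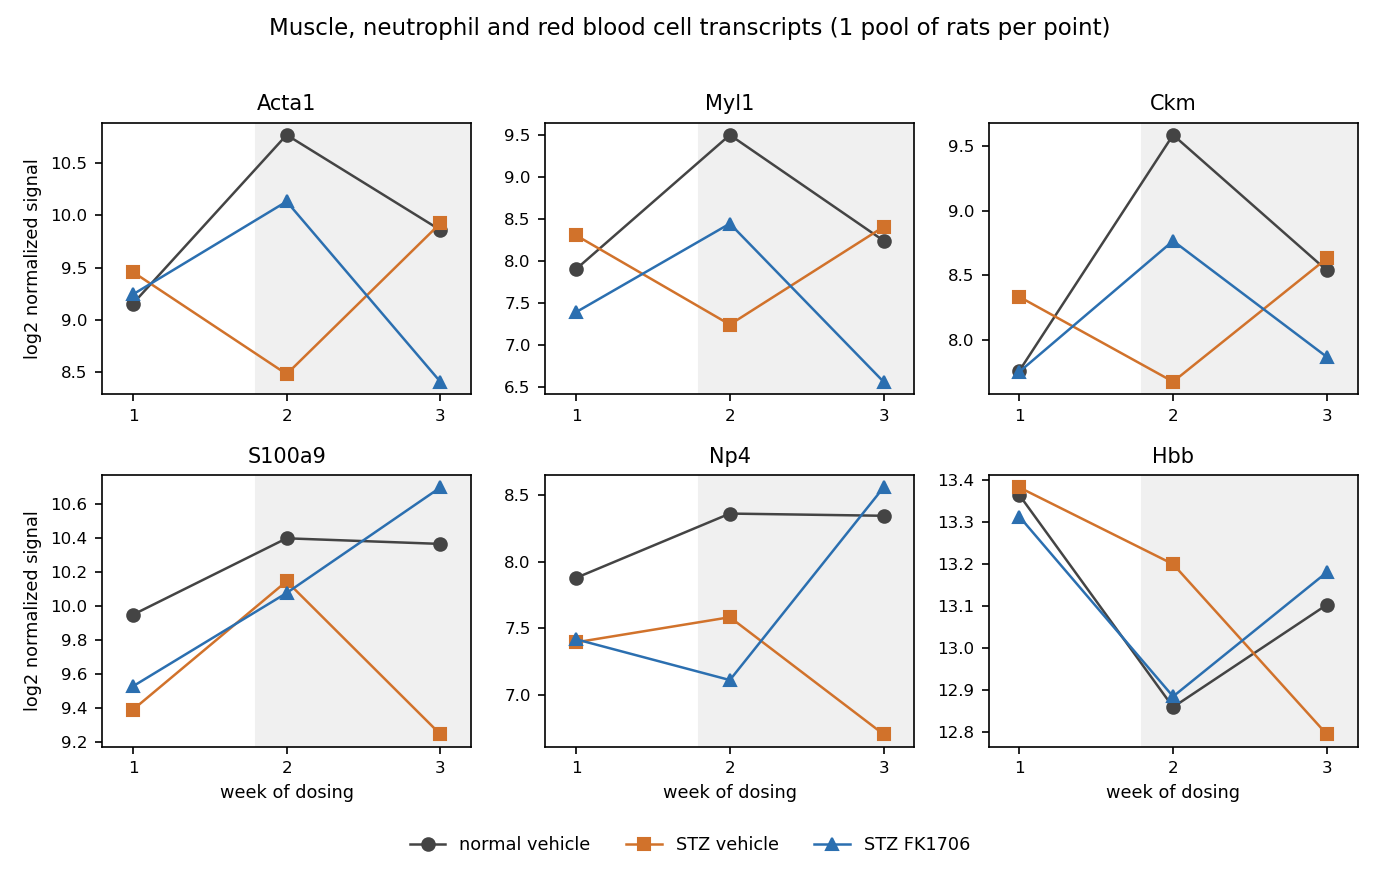
Normalized log2 signal (vertical axis) of 3 muscle genes (Acta1, Myl1, Ckm), 2 neutrophil genes (S100a9, Np4) and haemoglobin beta (Hbb) against the week of dosing; each point is 1 pool of 5 rats, each line 1 arm, and the shaded area marks the weeks compared. In the STZ vehicle arm the muscle genes are higher and the blood cell genes lower in week 3 than in week 2.

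The neighbouring steps share arrays with this one and gave as few calls after adjustment. Before adjustment they differed. Genes with a limma p under 0.05 numbered 404 in week 2 against week 1, 702 here and 889 in week 3 against week 1. Week 2 against week 1 had 1 gene that passed, Col3a1, lower in week 2 (-0.54, limma adjusted p = 0.043), and week 3 against week 1 had 1, U2af2, higher in week 3 (0.80, limma adjusted p = 0.032). Rap1gap differed by -0.33 in the first of these steps and by 0.50 over both.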

How the data were processed

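Per the labels' protocols, total RNA was extracted from each rat singly, mixed in equal amounts and labelled with biotin. The deposited values are intensities on a linear scale, made by the authors with MAS5 per the submitters' processing notes, which state no version. The arrays had not been brought to 1 level, so they were quantile-normalized, 19.1 (the 10th percentile) was added and log2 was taken.

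Of 15923 probe sets, 57 were controls, 12783 had 1 gene symbol, 312 several and 2771 none; 12748 were matched in the gene table (GRCr8) with 0 symbols changed. Each of 10411 genes was represented by its brightest probe set. Genes whose mean lay under the 40th percentile were left out, which left 6989. A fit of the probe sets themselves, 9520 tested, gave the same single call, and none among 1458 without 1 symbol (152 at an unadjusted p under 0.05). Week and arm were fitted to all 9 arrays with limma 3.58.1 (R 4.3.3), with a trend in the prior, 4 residual degrees of freedom and Benjamini-Hochberg adjustment at 0.05. Arm served as the block because week 2 and week 3 pools of an arm share strain and treatment; array numbers are names only. An interaction of week and arm cannot be tested with 1 pool each.

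Named genes were up to 12 per direction among those that passed, then those at least 1.5-fold apart in all 3 arms, up to 4 members by test statistic of each described list, and Acta1 and Myl1. For genes whose arms differ in sign, values are given by arm with no test. The members and lists were chosen with earlier results of these data known. The fit was tested on simulated data. Scaling, filter, offset, probe set choice, prior, block and each array and arm were varied. Promoter windows are RefSeq's.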

Additional observations from a re-analysis of the deposited data

Results flagged for a closer look

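In 6 of the 101 named genes that were tested and in 5 of the 39 list medians, both STZ arms differed between the weeks in one direction and the normal arm in the other. The same pattern of signs was present in 1692 (24.2%) of all 6989 genes tested, so it is not particular to these. With 1 pair of pools in the normal arm and 2 in the STZ arms, the difference was not tested. The values that follow are the mean of the STZ arms minus the normal arm, each as a log2 difference of week 3 minus week 2.

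Fcnb, a ficolin of neutrophils and monocytes, stood at -1.55, with 1.37 in the normal arm and -0.10 and -0.27 in the STZ vehicle and STZ FK1706 arms. Cpt2, which brings fatty acids into mitochondrial oxidation, stood at -0.69 (0.09, -0.51 and -0.70). The cartilage collagen Col2a1 stood at -0.61 (0.16, -0.48 and -0.41), while a dimmer probe set of it differed by 0.08 between the weeks. Laptm5, a lysosomal protein of blood cells, stood at 0.74 (-0.22, 0.45 and 0.59). Bmal1 stood at 0.59, and the cartilage gene Cnmd at 0.41 (-0.15, 0.18 and 0.35).

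The list medians were much closer to 0, at -0.067 for endothelium, -0.099 for macrophages and antigen presentation, -0.065 for the unfolded protein response and -0.066 for splicing factors. FK506-binding proteins and calcineurin stood at 0.19, with -0.18 in the normal arm and 0.01 and 0.00 in the STZ arms.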

How the results depend on the processing

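Rap1gap was the 1 gene that passed under trimmed-mean scaling, cyclic loess, no filter, either offset, the mean of all probe sets and a robust prior. On the deposited scale 1605 genes passed. The count was 3 with a filter at the 60th percentile (Rap1gap, Reep4 and Bmpr2), 2 with no replicate block, that is with arm left out (Rap1gap and Reep4), and 0 with only weeks 2 and 3 or with a prior without a trend, where the adjusted p of Rap1gap was 0.052 in both. Leaving out 1 array at a time gave 0 to 2, and leaving out the normal vehicle, STZ vehicle or STZ FK1706 arm gave 0 each time, with 742, 480 and 545 genes at an unadjusted limma p under 0.05. Those 3 settings have fewer arrays.

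The count of genes at least 1.5-fold apart in every arm went from 5 to 12 on the deposited scale, 31 without a filter, 8 with an offset of 1 and 3 with 3 times the offset. It was 37, 36 and 32 without the normal vehicle, STZ vehicle and STZ FK1706 arms, and 5 to 41 without single arrays. Without an arm, or an array of week 2 or 3, only 2 arms had to share the direction.

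Of 69 named genes with 1 sign in all arms, the sign turned on the deposited scale for Mal (-0.10), Ugt8 (-0.021), Fn1 (-0.035), Col3a1 (-0.082), Timp1 (-0.047), Myh1 (-0.062), Uqcrh (-0.13) and Uqcrq (-0.11), where the median gene stands at -0.22. With the mean of all probe sets it turned for Trpv1 (0.065), Col6a2 (-0.033) and Tfrc (0.15). The other 1627 of their 1638 values under alternatives kept the sign. With arms of mixed sign, 49 of 739 means changed sign. Of 897 list medians off the deposited scale, 76 moved by more than the spread over arms. The median SE was 0.12, so with 1 pool per arm and week differences of that size lie within the error of these arrays. Differences as large as 0.79 (Reep4) and -0.95 (Bmpr2) did not pass.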

Other observations

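Some groups not described above had members with 1 sign in all arms, none of which passed; the genes named here were picked with their values in view. Ceruloplasmin (Cp), a copper-binding acute phase protein, differed by 0.22, 0.83 and 0.90 in the normal, STZ vehicle and STZ FK1706 arms (mean 0.65, limma adjusted p = 0.18) by its brightest probe set, while 2 further probe sets had means of -0.08 and -0.17. Cebpd, a transcription factor of the acute phase response, differed by 0.19, 0.48 and 0.63 by its brightest probe set, by -0.31, -1.27 and -0.24 by a further one and by 1.49, -0.16 and -0.06 by a dim one. The probe sets of both genes thus disagree. Of the 8 inflammatory and acute phase genes tested, 3 were higher and 1 lower in all arms, beside 14.7% and 17.3% of all genes. The list's medians were 0.11, 0.12 and 0.09. The glycolytic enzymes Eno1 and Ldha differed by -0.25 and -0.16, in a list of 22 genes with 4 lower and 3 higher in all arms (median -0.04).

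Cytosolic ribosomal protein genes stayed near 0, with 5 of 30 higher and 4 lower in all arms (median 0.01). Synaptic vesicle genes had 5 of 24 higher and 2 lower in all arms, and neuropeptide genes 2 of 13 higher and 1 lower, with medians of -0.00 and -0.02. Interferon-stimulated genes had 2 of 18 higher and none lower in all arms (median 0.05). The spike-in controls, added at fixed amounts before hybridisation, were lower in week 3 in 15, 17 and 9 of 18 probe sets on the deposited scale. Their median log2 shifts were -0.17, -0.39 and 0.03, beside -0.32, -0.19 and -0.17 for the genes tested.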
